A study of Bos taurus with 9 samples.

Results

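A set of 30 bovine genes had nearly the same deposited expression value in mature oocytes and in both kinds of 2-cell embryo. The genes were chosen by the values described here. Each had a mean of 20 to under 1000 FPKM over 9 libraries, and its highest library was less than 25% above its lowest. FPKM corrects a fragment count for transcript length and for the fragments of the library, so that levels can be set beside each other between genes. The 30 genes are called even genes below. They are 0.913% of the 3287 genes in that range of means and come from a table of 24616 gene identifiers. The rule used every library, so the levels of the even genes, their ratios and the differences between groups are given as description, with no test.

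All material was Holstein cattle (Bos taurus), as pools with 3 libraries per group. An MII library held 3 mature, unfertilised oocytes arrested in the second meiotic division, although 1 label field calls them wild embryos. An IVF library held 6 embryos at the 2-cell stage from fertilisation in vitro. An SCNT library held 6 embryos at the 2-cell stage from somatic cell nuclear transfer, in which a somatic nucleus replaces that of the egg. Oocytes and embryos thus differed in pool size as well as in stage. The labels say neither which donor cells gave the nuclei nor whether the pools came from separate animals or cultures, so the spread between libraries may be partly technical.

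A mature oocyte makes almost no new RNA and carries a large store of maternal messages. After fertilisation or nuclear transfer the embryo translates, readenylates and degrades that store, and in cattle the main start of its own transcription comes after the 2-cell stage. Evenly expressed genes are of practical interest as references for other measurements. FPKM is a relative scale and not an amount per oocyte or embryo. The same FPKM is also not the same share of 2 libraries whose FPKM totals differ, and in pools fewer cells and less RNA per cell cannot be told apart.

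The deposited table lists Ensembl gene identifiers without names. None of the 24616 identifiers (0) matched the bovine RefSeq table used here (assembly ARS-UCD2.0), so no function, position or sequence is given for any gene, and the labelled cell types were not checked against marker genes. Read totals are not in the FPKM values. The steps between low values gave relative depths of 80% for MII replicate 1 and between 94% and 100% of the deepest library for the other 8. These estimates are weak, since each rests on a comparison with MII replicate 1 in which 12.5% to 20.4% of the low genes lay near the most frequent ratio. The deposited FPKM totals ran from 1153912 in MII replicate 2 to 1386979 in MII replicate 1, and the IVF totals (1197565 to 1206014) lay below the SCNT totals (1276123 to 1294594).

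The even genes covered most of the range of abundance that the rule allows. Their means ran from 21.4 to 818 FPKM with a median of 219 FPKM, against a median of 60.7 FPKM for all 3287 genes of the range. Of the 30 genes, 16 had a mean of 200 FPKM or more. The share of genes under the limit was 0.284% of 1406 genes at 20 to under 50 FPKM and 0.128% of 781 genes at 50 to under 100 FPKM. It was 1.72% of 522 genes at 100 to under 200 FPKM, 3.21% of 405 genes at 200 to under 500 FPKM and 1.73% of 173 genes at 500 to under 1000 FPKM. Outside the range, 3 of the 2567 genes at 5 to under 20 FPKM, 0 of the 2980 genes at 1 to under 5 FPKM and 1 of the 185 genes at 1000 FPKM or more stayed under the limit of 25%. Even genes were thus most frequent between 100 and 1000 FPKM and scarce on both sides of it.

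**Figure D1:**
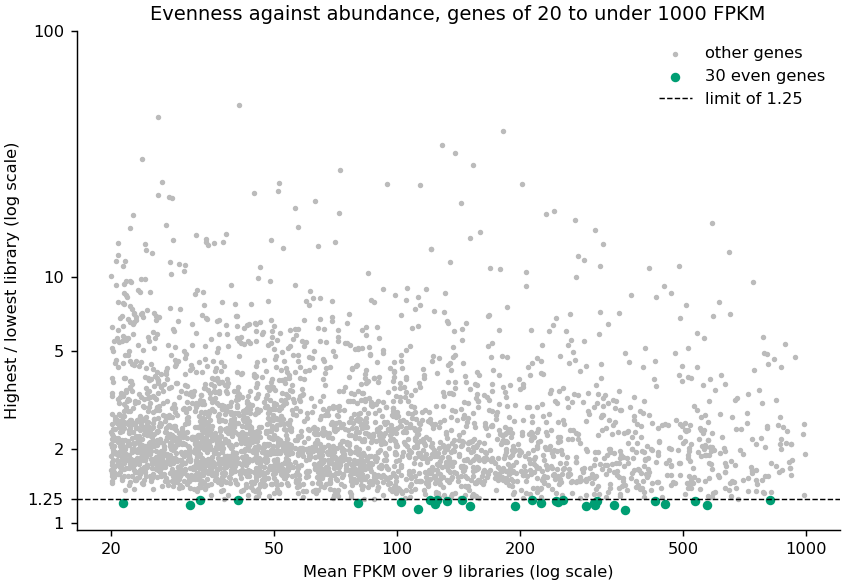
Ratio of the highest to the lowest of the 9 libraries against the mean FPKM, both on log scales, for the genes with a mean of 20 to under 1000 FPKM. Of 3287 genes, 3268 are plotted and 19 with a library at 0 or a ratio over 100 are left out; the 30 even genes lie under the dashed limit of 25% above the lowest, below the median ratio of 2.11.

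An ordinary gene of this range varied far more. The median ratio of highest to lowest library was 2.11 over the 3287 genes, and 1831 genes (55.7%) had a ratio of 2 or more. The ratios of the even genes ran from 1.14 to 1.246 with a median of 1.21, so most of them lay close to the limit. A ratio under 1.2 was found for 11 even genes, and 19 lay between 1.2 and the limit. A further 37 genes of the range lay between the limit and 1.3. The last 2 genes inside the limit had ratios of 1.245 and 1.246, and the first 2 outside had 1.251 and 1.253. There was no gap at the limit, and the set is the lower end of a continuous distribution.

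The 2 genes with the smallest ratio were ENSBTAG00000021767 and ENSBTAG00000015280. Here and below, the values of a group are those of replicates 1, 2 and 3. ENSBTAG00000021767 had 369, 344 and 333 FPKM in oocytes, 378, 355 and 365 in IVF and 365, 373 and 368 in SCNT embryos (ratio 1.14). The lowest values were those of MII replicates 2 and 3, and the ranges of the 3 groups overlapped. ENSBTAG00000015280 had 111, 110.4 and 107 FPKM in oocytes, 121, 117 and 114 in IVF and 116, 106 and 110.1 in SCNT embryos (ratio 1.15). All its IVF values lay above all its MII values, and the SCNT values reached from below the lowest oocyte into the IVF range.

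The coefficient of variation over the 9 libraries ran from 4.05% to 8.72% among the even genes, with a median of 6.66%. Over all genes of the range the median was 25.1%. Within groups, the pooled SD of the 3 replicates was 5.71% of the mean for the median even gene and 13.5% for the median gene of the range. For the even genes the spread over all libraries was close to the spread between replicates. The limit over all 9 libraries bounds both spreads and the group means, so nothing is read from this. The highest of the 3 group means of an even gene was between 1.02 and 1.19 times the lowest, with a median of 1.09, and 20 of the 30 genes were under 1.1.

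**Figure D2:**
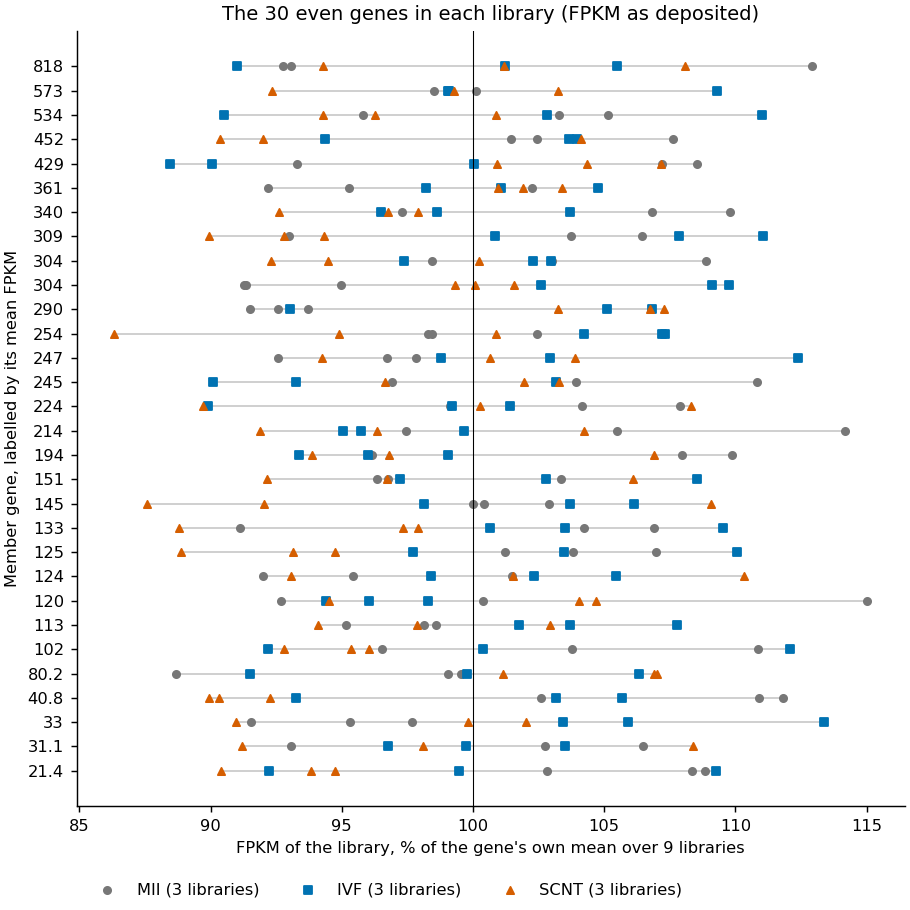
FPKM of each library as a percentage of the gene's own mean over the 9 libraries, for the 30 even genes sorted and labelled by mean FPKM (grey circles MII, blue squares IVF, orange triangles SCNT; lines join the lowest and highest library). The groups intermingle in most rows, and the row at 304 FPKM with all 3 oocyte values at the left end is ENSBTAG00000011022.

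The even genes did not share a single order of the groups. The order SCNT, IVF, MII from low to high held for 8 genes and SCNT, MII, IVF for 7. The order IVF, SCNT, MII held for 5 genes, as did MII, SCNT, IVF, while 3 followed MII, IVF, SCNT and 2 followed IVF, MII, SCNT. SCNT embryos thus had the lowest mean for 15 of the 30 genes as deposited. The same count over all genes of the range is not given here, so nothing is read from it. SCNT replicates 2 and 3 were the lowest library for 7 and 6 genes. IVF replicate 3 was the lowest for 0 genes and IVF replicate 2 the highest for 6. The summed FPKM of the 30 genes was 7348 ± 208 in MII oocytes (SD, n = 3), 7374 ± 142 in IVF embryos (SD, n = 3) and 7214 ± 129 in SCNT embryos (SD, n = 3), and the ranges of the groups overlapped.

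Many genes were even within 1 group and few over all 3. Of the 3287 genes of the range, 1184 (36%) met the limit within the MII libraries, 2148 (65.3%) within the IVF libraries and 1774 (54%) within the SCNT libraries. Within each of the 3 groups taken singly, 543 genes (16.5%) met the limit. Of these 543 genes with close replicates, the 30 even genes (5.52%) also met it over all 9 libraries. The highest group mean of the 543 was a median of 1.40 times the lowest and at most 5.11 times. Their lowest group mean was in MII oocytes for 261 genes, in SCNT embryos for 225 and in IVF embryos for 57. Their highest was in IVF embryos for 294 genes, in MII oocytes for 179 and in SCNT embryos for 70. The same counts over all 3287 genes are not given here. Over those genes the median log2 difference was 0.15 for IVF minus MII, -0.07 for SCNT minus MII and -0.21 for SCNT minus IVF. Higher levels in IVF than in SCNT embryos are thus not particular to the 543 genes. For 134 of the 543 genes (24.7%) the highest group mean was less than 25% above the lowest. Fewest genes met the limit within the MII libraries, which came from the smaller pools and include the library with the lowest estimated depth; the part of pool size and depth in this was not tested.

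Within the limit of 25%, the libraries of 2 groups could still separate. IVF libraries lay all above MII libraries for 5 even genes (background over the range 39.1%) and all below for 0 (background 22.3%). These 5 genes, named after their values were seen, were ENSBTAG00000011022, ENSBTAG00000001486, ENSBTAG00000008078, ENSBTAG00000015280 and ENSBTAG00000019500, with mean levels between 6.57% and 15.8% higher in IVF embryos. SCNT libraries lay all above MII libraries for 3 even genes (background 31.2%), namely ENSBTAG00000013925, ENSBTAG00000006413 and ENSBTAG00000011022. They lay all below for 4 (background 36.4%), namely ENSBTAG00000014007, ENSBTAG00000022069, ENSBTAG00000021691 and ENSBTAG00000016002. Between the embryos, SCNT libraries lay all below IVF libraries for 7 even genes (background 40.1%) and all above for 1, ENSBTAG00000014685 (background 7.48%). Over the 9458 genes that reached 1 FPKM in 3 or more libraries, the share apart in either direction was 60.1% for IVF and MII, 59.2% for SCNT and MII and 41.4% for SCNT and IVF. The limit itself keeps these shares low among the even genes, so nothing is read from the contrast. For 16 of the 30 even genes no comparison separated the groups, against 441 (13.4%) of the 3287 genes of the range.

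The even genes highest in embryos relative to oocytes were ENSBTAG00000011022 and ENSBTAG00000013925. ENSBTAG00000011022 had 278, 289 and 277 FPKM in oocytes, 312, 334 and 332 in IVF and 304, 302 and 309 in SCNT embryos. It was the 1 even gene whose 6 embryo libraries all lay above its 3 oocyte libraries, and the 1 for which all 3 comparisons separated. Its mean was 12.1% higher in embryos, a log2 difference of 0.16 on the log2(FPKM + 1) scale, which became 0.043 under median-ratio scaling and 0.27 under quantile normalization. ENSBTAG00000013925 had 268, 271 and 265 FPKM in oocytes, 309, 304 and 269 in IVF and 299, 309 and 311 in SCNT embryos. IVF replicate 3 lay inside the oocyte range and the other 5 embryo libraries lay above it.

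The even genes lowest in embryos relative to oocytes were 2 of the least abundant. ENSBTAG00000014007 had 41.9, 45.6 and 45.3 FPKM in oocytes, 38.1, 42.1 and 43.1 in IVF and 36.9, 36.7 and 37.7 in SCNT embryos. Its SCNT values lay below all others, and its IVF values lay between and overlapped the oocytes. ENSBTAG00000022069, the least abundant even gene, had 22, 23.3 and 23.2 FPKM in oocytes, 21.3, 23.4 and 19.8 in IVF and 19.4, 20.3 and 20.1 in SCNT embryos. Here too the SCNT values lay below the oocytes, while the IVF values spanned both. ENSBTAG00000014685, the 1 even gene with SCNT above IVF in every library, had 459, 433 and 447 FPKM in SCNT and 386, 379 and 429 in IVF embryos. Its oocyte libraries, at 459, 399.9 and 465 FPKM, spanned both.

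As deposited, the median log2 difference of the even genes was -0.0024 for IVF minus MII, -0.053 for SCNT minus MII and -0.063 for SCNT minus IVF. Over the 3287 genes of the range the medians were 0.15, -0.07 and -0.21, and over the 9458 genes they were 0.40, 0.16 and -0.25. The rule holds the differences of the even genes near 0 as deposited, so nothing is read from their distance to these medians.

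Rescaling each library to a common total of 1000000 removed most of the set. Of the 30 even genes, 8 (26.7%) still met the rule and 22 did not, none of the 22 through the bounds on the mean (0 genes). The median ratio of the 30 went from 1.21 to 1.31, and the highest was 1.43. Among the 22 genes that left, ratios ran from 1.254 to 1.43 with a median of 1.32, and 17 had a ratio of 1.3 or more. The set after rescaling held 17 genes, of which the 8 are 47.1% and 9 were not even as deposited. Those 9 had deposited ratios from 1.26 to 1.44. With the common total set to the mean FPKM total of the 9 libraries, which leaves the bounds on the mean in place, 16 genes met the rule, the same 8 members among them. The deposited totals differ by a factor of 1.202, so a gene at the same FPKM in all 9 libraries has a ratio of 1.202 after rescaling, by arithmetic alone.

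**Figure D3:**
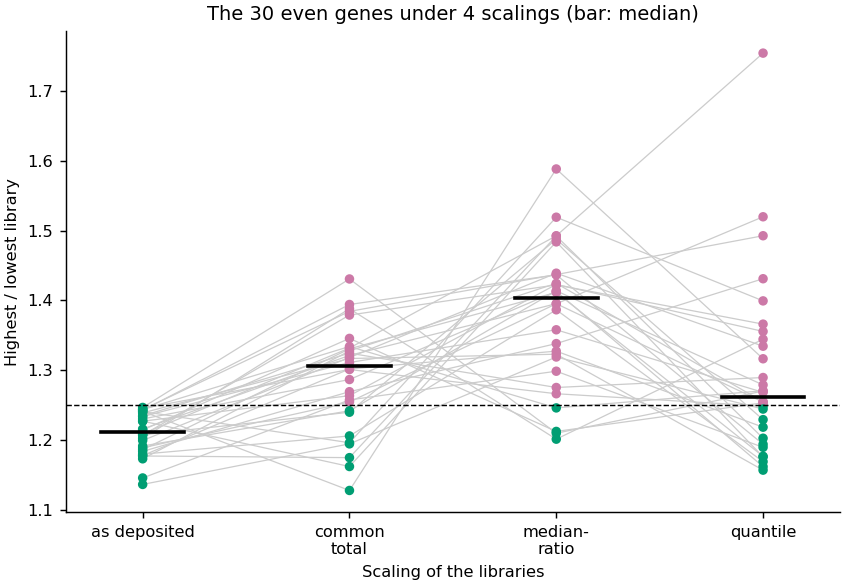
Ratio of the highest to the lowest library for each of the 30 even genes (points, joined by grey lines) under the 4 scalings named on the axis; black bars are medians and the dashed line is the limit of 25% above the lowest. Green points meet the limit, from left to right 30, 8, 4 and 12 of the 30 genes.

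The 8 genes that held up at a common total had means of 120.3 to 818 FPKM, with a median of 333 FPKM, against 148 FPKM for the 22 that left. The 5 even genes whose highest library was MII replicate 1, the library with the largest FPKM total and the lowest estimated depth, were all among the 8. The 11 genes highest in IVF replicates 2 or 3, which have low totals, all left, as did the 4 highest in MII replicate 2, which has the lowest. Division by the total lowers the values of a library with a large total and raises those with a low one. This pattern thus follows largely by arithmetic. The most even gene at a common total was ENSBTAG00000006369, singled out after its values were seen. As deposited it had 138, 112 and 121 FPKM in oocytes, 118, 116 and 114 in IVF and 126, 114 and 125 in SCNT embryos. Its ratio went from 1.24 as deposited to 1.13. A gene picked for evenness at a common total largely follows the library totals by arithmetic, as its high value in MII replicate 1 did. ENSBTAG00000021767, the most even gene as deposited, kept a ratio of 1.19. ENSBTAG00000015280 went to 1.26 and so passed just over the limit.

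Median-ratio scaling, in which the median gene of 10 FPKM or more is held level across libraries, kept 4 of the 30 even genes (13.3%). The set under this scaling held 53 genes, of which these 4 are 7.55%. The 4 genes, named after their values were seen, were ENSBTAG00000011022, ENSBTAG00000008078, ENSBTAG00000019500 and ENSBTAG00000001486. ENSBTAG00000008078 had 239, 229 and 242 FPKM in oocytes, 254, 244 and 278 in IVF and 233, 249 and 257 in SCNT embryos. ENSBTAG00000019500 had 250.0, 260.5 and 250.3 FPKM in oocytes, 265, 273 and 273 in IVF and 257, 219.5 and 241 in SCNT embryos. ENSBTAG00000001486 had 30.2, 31.4 and 32.2 FPKM in oocytes, 34.1, 37.4 and 34.9 in IVF and 32.9, 33.6 and 30 in SCNT embryos. All 4 were higher in every IVF library than in every MII library as deposited, and the median-ratio factors were largest in the IVF libraries. The factors ran from 89.3% in MII replicate 1 to 116% in IVF replicate 3. A gene at the same FPKM in all libraries has a ratio of 1.304 after this scaling, and so cannot meet the limit.

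**Figure D4:**
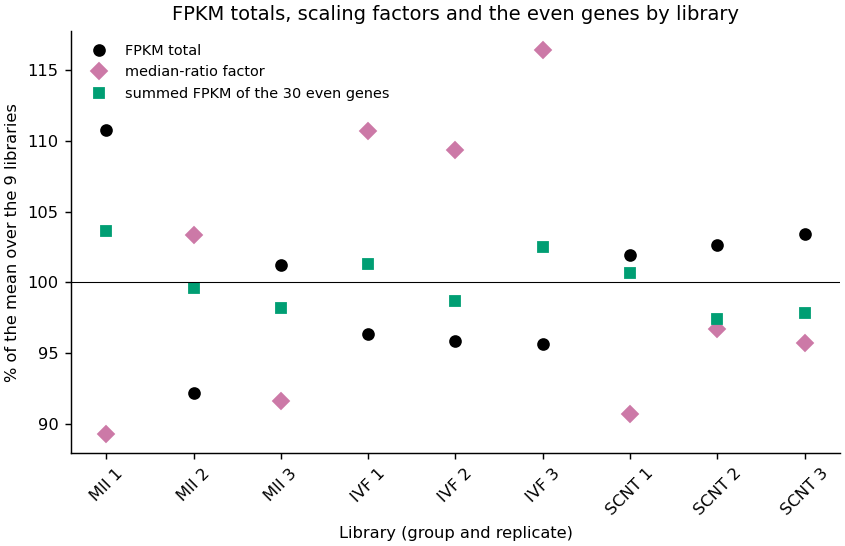
FPKM total (black circles), median-ratio factor (pink diamonds) and summed FPKM of the 30 even genes (green squares) of each library, as a percentage of the mean over the 9 libraries (the factors have a geometric mean of 100%). MII replicate 1 has the highest total and the lowest factor, the IVF libraries have low totals and high factors, and the sums of the even genes lie near 100%, as the rule requires of genes even over these libraries.

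Quantile normalization gives all libraries the same distribution of values. It kept 12 of the 30 even genes (40%) in a set of 63 genes, of which these 12 are 19%. ENSBTAG00000022069 reached a ratio of 1.75 under it, the highest of any even gene in these 4 scalings. The overlap between the sets was small. A common total and median-ratio scaling had 0 genes in common, so 0 genes met the rule as deposited, at a common total and with median-ratio scaling together. After median-ratio scaling the totals differ by a factor of 1.51, so by arithmetic there is little room for a gene to meet the limit in both. A total of 109 genes met the rule in at least 1 of the 4 scalings, and 11 of the 30 even genes met it only as deposited. Median-ratio scaling and quantile normalization shared 26 genes.

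The balance of the groups among the even genes moved with the scaling. A common total and median-ratio scaling multiply all genes of a library by 1 factor, so genes held within a narrow band move together under them by arithmetic. For SCNT and IVF embryos, 20 of the 30 genes had a lower mean log2 level in SCNT as deposited, 29 at a common total, 0 under median-ratio scaling and 13 under quantile normalization. SCNT libraries lay all below IVF libraries for 15 even genes at a common total (background over the range 50.7%) and all above for 19 with median-ratio scaling (background 22.7%). The median difference of the even genes went from -0.063 as deposited to -0.16 at a common total, and was 0.19 under median-ratio scaling and 0.045 under quantile normalization. For IVF and MII, the median was -0.0024 as deposited, 0.073 at a common total, -0.25 under median-ratio scaling and 0.029 under quantile normalization. For SCNT and MII, it was -0.053, -0.074, -0.049 and 0.054 in the same order. These values show the scaling and are not read as differences between the groups.

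As a share of the FPKM total, the 30 genes took 0.581% ± 0.0442 in MII oocytes (SD, n = 3), 0.614% ± 0.0123 in IVF embryos (SD, n = 3) and 0.561% ± 0.0135 in SCNT embryos (SD, n = 3). The share was lowest in MII replicate 1 (0.547%) and highest in MII replicate 2 (0.631%). The IVF shares (0.601% to 0.626%) lay above the SCNT shares (0.553% to 0.577%), while the summed FPKM of the same genes overlapped. The rule holds the summed FPKM of these genes nearly level, so their shares follow the library totals largely by arithmetic. They are not read as a difference between the groups. The difference between totals lay mainly in the 185 genes that averaged 1000 FPKM or above, whose sum ran from 686178 in MII replicate 2 to 916602 in MII replicate 1. All other genes together summed to between 425282 in SCNT replicate 1 and 470376 in MII replicate 1.

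Libraries that take no part in the choice give values that the rule did not set. Genes were therefore chosen by the same rule over the 6 libraries of 2 groups and read in the group left out. Over IVF and SCNT embryos 340 genes were even, over MII and SCNT 150 and over MII and IVF 148. More genes were thus even over both embryos than over oocytes and either embryo. Fewer genes met the limit within the MII libraries (36%) than within IVF (65.3%) or SCNT libraries (54%), which bounds the sets that include oocytes. The part of this in the counts was not tested. All 30 even genes belong to the sets of 340, 150 and 148 genes, of which they are 8.82%, 20% and 20.3%.

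The genes even over both embryos were spread widely in oocytes. The oocyte mean, relative to the mean of the 6 embryo libraries, ran from -2.80 to 1.85 on the log2 scale, with a median of -0.25 (-0.10 for all 3396 genes of the range over these 6 libraries). Its size was under 0.32, the limit on the log2 scale, for 125 of the 340 genes (36.8%), against 33.9% of all genes of the range. Oocyte libraries lay all below the embryo libraries for 165 of the 340 (background over the 3396 genes 31.7%) and all above for 68 (background 18%). The narrow range of the 6 embryo libraries in the chosen genes makes such separation likelier by construction, so nothing is read from these counts. Evenness over the embryos went with a share of near-equal oocyte levels close to that of genes at large.

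The other choices gave larger shares of near-equal levels in the group left out. Genes even over MII and IVF had SCNT means inside that limit for 114 of 148 (77%), against 45.6% of all genes of the range, with a median log2 ratio of -0.15 and a range from -0.62 to 0.64. Genes even over MII and SCNT had IVF means inside it for 98 of 150 (65.3%), against 55.3%, with a median of 0.24 and a range from -0.30 to 0.95. In that set 123 of 150 genes were higher in IVF embryos than over the other libraries, and in the set chosen without SCNT 109 of 148 were lower in SCNT embryos. Over all genes of the range the medians lay on the same sides, at 0.15 for IVF and -0.19 for SCNT. These directions are thus not particular to the chosen genes. The values are descriptions of FPKM as deposited, and the SCNT libraries have higher totals than the IVF libraries.

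**Figure D5:**
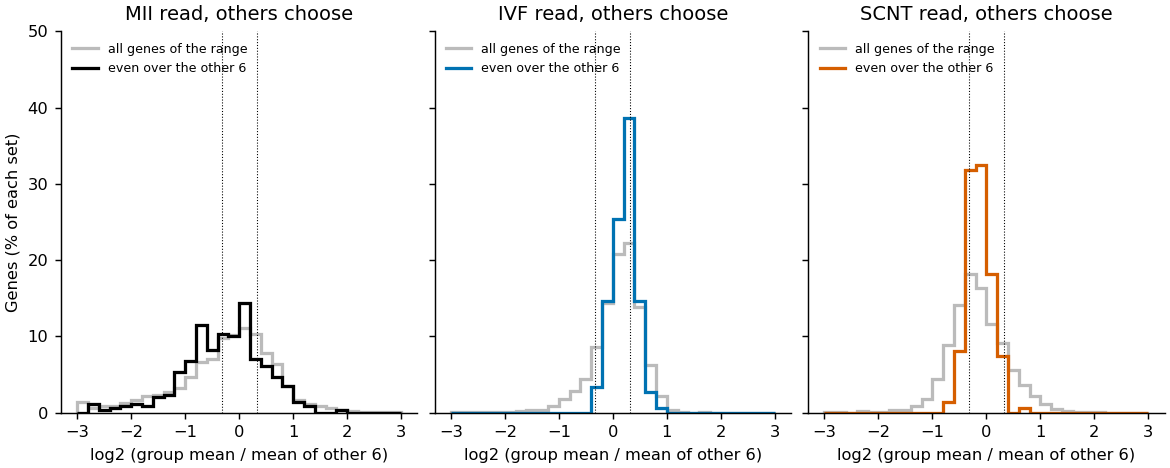
Log2 ratio of the mean of the left-out group to the mean of the other 6 libraries, as a percentage of genes in steps of 0.2, for genes even over those 6 libraries (coloured or black) and for all genes of 20 to under 1000 FPKM over them (grey). Dotted lines mark a log2 ratio of 0.32 either way; values beyond the axis are in its end steps. The oocyte panel is wide for both sets, and the IVF and SCNT panels are narrower for the even genes, to the right and left of 0.

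The size of the set depended on single libraries. A gene's ratio cannot rise when a library is left out, so a larger set follows by arithmetic, and only the size of the rise differs. All 30 even genes stayed in each time. Over 8 libraries, between 34 genes (without IVF replicate 1) and 56 genes (without MII replicate 2) were even. The number was 49 without SCNT replicate 2 and at most 44 without any other single library. A further 26 genes thus met the rule without MII replicate 2 and a further 19 without SCNT replicate 2. For the 49 genes chosen without it, SCNT replicate 2 had a median log2 ratio of -0.095 to the 8 other libraries. For the 56 chosen without MII replicate 2, that library had a median of 0.0044. In each of these sets 30 are the even genes, whose value in every library the rule bounds. MII replicate 2 has the lowest FPKM total of the 9 libraries, and the part of the total in the size of the set was not tested.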

How the data were processed

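Total RNA from pools was reverse transcribed, tailed with poly(A), amplified and sequenced, per the labels' protocols, so amplification noise adds to every value. The authors deposited 1 table of FPKM values for 24616 genes and 9 libraries. The unit comes from the table's name. The submitters' processing notes name RSEM 1.2.12, Bowtie2 2.2.5, StringTie 1.0.4, HISAT 0.1.6, bcl2fastq 2.16 and the build UMD3.1, without roles. Strand is not described, so overlapping antisense genes and near-identical copies are uncertain. The number of reads behind each value is unknown, so counting intervals are left out.

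The rule was applied to FPKM as deposited, with no pseudocount. Log2 differences use log2(FPKM + 1), which shrinks those of low genes. Relative depth is the most frequent ratio of values under 0.5 FPKM between libraries. Scalings were a common total, median-ratio and quantile normalization. Other alternatives changed the limit, the bounds, the pseudocount or the libraries. No test was made, since the rule used every contrast. As a check of the code only, the rule recovered 200 of 200 even genes placed in simulated data of 15590 genes. These genes were placed well inside the limit, so the rule could not miss them. The 30 genes were chosen with earlier results of these data known. Without names, the rule for named genes took the 2 smallest ratios and the 2 largest and 2 smallest differences of embryos from oocytes; further genes were named after their values were seen. Gene lists and cell type markers fixed by symbol were not analysed here. Python 3.11.15, numpy 2.4.6, pandas 2.3.3 and matplotlib 3.10.9 were used.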

Additional observations from a re-analysis of the deposited data

How the results depend on the processing

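The number of even genes, 30 as deposited, was 17 at a common total of 1000000, 16 at a common total equal to the mean FPKM total (added after seeing the data), 53 under median-ratio scaling and 63 under quantile normalization. It was 11, 67 and 361 with limits of 1.2, 1.3 and 1.5. Leaving out 1 library, which cannot raise a gene's ratio, gave 34 to 56 genes. It was 340 without the MII group, 150 without the IVF group and 148 without the SCNT group. Of the 30 genes, 8 met the rule at either common total, 4 under median-ratio scaling and 12 under quantile normalization. In the other alternatives run (bounds on the mean and pseudocounts) the number stayed within 1.5 times of 30.

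The median log2 difference of the even genes for IVF minus MII was -0.25 with median-ratio scaling. For SCNT minus MII it turned to 0.0540 with quantile normalization. For SCNT minus IVF it was -0.16 at either common total and turned to 0.19 under median-ratio scaling and 0.0446 under quantile normalization. Without 1 library these 3 medians ran from -0.011 to 0.0198, from -0.0607 to -0.0308 and from -0.0712 to -0.0452. With median-ratio scaling the difference of embryos from oocytes turned to -0.0450 for ENSBTAG00000021767 and to -0.0626 for ENSBTAG00000015280. The cause of these changes was not tested, beyond the arithmetic of the scaling factors. No paired analysis was possible because the results come from no test. Depth limits are unknown without read totals.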
